A study of Sus scrofa with 6 samples.

Results

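AQP4, GFAP, SLC1A2, SLC1A3, GJA1, SPARCL1, AGT, SLCO1C1 and MT3 are 9 genes by which astrocytes are commonly recognised and which carry out much of what these cells do. They were picked by symbol from the 30477 genes in the deposited tables, and all 9 were found under their own symbol. Astrocytes are the glial cells that clear transmitter from synapses, move water and potassium, couple to one another through gap junctions and contact blood vessels. They arise from radial glia after most neurons have been born, and several of the genes are already used by radial glia, so that they are known to switch on at different stages rather than as a block.

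The genes were followed in porcine midbrain-like organoids (pMLOs), 3-dimensional cultures grown from the embryonic stem cell line IVF_1_ pESC_FIW. Organoids were patterned with SB431542, Noggin, SHH-C24II, CHIR99021 and FGF8, and single-cell libraries were made with the GEM-X 3' v4 chemistry on days 11, 28 and 45 (D11, D28 and D45), 2 libraries a day (replicates A and B). The D28 and D45 organoids had also been embedded in Matrigel and kept in medium to which GDNF, db-cAMP and DAPT, an inhibitor of the enzyme that activates Notch, had been added, while BDNF and ascorbic acid were already in the D11 medium, so age and medium cannot be told apart between D11 and the later days. All libraries come from 1 cell line. The study describes A and B as biological duplicates without saying what was duplicated (wells, batches of organoids or differentiations). The p-values of the day comparisons therefore rest on the spread between such duplicates. Those between groups of cells rest on how the group difference varies between libraries, which over D28 and D45 includes variation between days. In all fits the spread is moderated across all genes tested, which weighs most where 1 residual degree of freedom was left.

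Barcodes were kept when they showed 200 to 7000 genes and at most 10% mitochondrial UMIs (unique molecular identifiers, each marking 1 captured mRNA molecule), and 102940 of 104820 remained, with 13870 to 21553 cells and 106805311 to 180034791 UMIs per library. The median cell held 10757 and 8845 UMIs in the D11 libraries, 5505 and 8130 in those of D28, and 2300.5 and 4341 in those of D45. Pairs of libraries shared 55 to 119 barcodes. Levels are in CPM, that is, a gene's UMIs relative to all UMIs of the cells summed. The tested fold changes use a further scaling between libraries (TMM), so they need not equal ratios of CPM. The labels call the cells midbrain dopaminergic neurons, yet the 9 dopaminergic markers together reached only 117 to 398 CPM in any library, and STMN2, a general neuronal marker, was seen in 26.8% of D11 replicate A cells and in 74.8% of D28 replicate A cells.

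The RefSeq genes lie on 8 pig chromosomes of Sscrofa11.1, and AQP4 (chr6:111407632-111422169) and MT3 (chr6:18634735-18636134) share chromosome 6. Since most of the 9 genes rose over the same weeks, the 250 bases before each RefSeq start were searched on both strands for 4 short motifs: TTGGCA (a core of the sites bound by NFI factors, which act in gliogenesis), TTCNNNGAA (STAT factors), ACAAAG (SOX factors) and CAGCTG (an E-box). No motif was common to the 9: TTGGCA was in 0 of 9 against 9.99% of 20664 protein-coding genes, TTCNNNGAA in 2 of 9 against 6.38%, ACAAAG in 1 of 9 against 12.4% and CAGCTG in 1 of 9 against 13.5%. A match is only a match of letters, and its absence concerns this window alone. The 3 windows with a STAT or SOX match are printed 5′ to 3′ with the matches in capitals, followed by that of GFAP, a late gene with none.
SLCO1C1, chr5:52315312-52315561, minus strand: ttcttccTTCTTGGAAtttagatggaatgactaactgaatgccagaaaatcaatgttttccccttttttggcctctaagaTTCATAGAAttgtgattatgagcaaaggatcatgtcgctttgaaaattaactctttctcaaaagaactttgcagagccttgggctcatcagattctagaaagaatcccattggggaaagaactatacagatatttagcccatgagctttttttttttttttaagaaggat
SLC1A2, chr2:25603642-25603891, plus strand: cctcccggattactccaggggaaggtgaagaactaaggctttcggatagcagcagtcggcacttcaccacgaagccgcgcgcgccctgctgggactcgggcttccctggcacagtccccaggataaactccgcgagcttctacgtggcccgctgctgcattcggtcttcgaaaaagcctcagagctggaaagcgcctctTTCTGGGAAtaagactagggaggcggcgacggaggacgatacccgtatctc
SLC1A3, chr16:21873441-21873690, plus strand: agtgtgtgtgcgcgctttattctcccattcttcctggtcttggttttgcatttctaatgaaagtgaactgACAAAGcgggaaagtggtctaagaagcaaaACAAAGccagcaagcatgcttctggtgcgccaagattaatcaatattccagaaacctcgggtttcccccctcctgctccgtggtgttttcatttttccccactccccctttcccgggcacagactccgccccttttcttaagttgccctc
GFAP, chr12:18456018-18456267, plus strand: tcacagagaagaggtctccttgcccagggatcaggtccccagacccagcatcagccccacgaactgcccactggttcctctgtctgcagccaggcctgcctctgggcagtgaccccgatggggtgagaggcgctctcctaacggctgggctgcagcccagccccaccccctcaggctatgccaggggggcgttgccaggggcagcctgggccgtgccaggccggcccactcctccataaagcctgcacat

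In whole organoids 8 of the 9 genes were higher on D45 than on D11, and only GJA1 was not. The genes differed in when they came up. GJA1 and SLC1A2 had reached at least 10% of their highest level by D11. SLC1A3, AGT, MT3 and SLCO1C1 did so by D28, and GFAP, SPARCL1 and AQP4 only on D45. The mark is relative to each gene's own highest day and does not mean absence before it. All genes but AQP4 had more than 3 UMIs in both D11 libraries, and MT3 averaged 14.8 CPM there beside 15.6 CPM for SLC1A2. SLCO1C1 and SPARCL1 lay near that mark, at 10.2% and 6.64% on D28. Their order differed between the D28 libraries, with SLCO1C1 at 5.93% and 14.4% of its D45 mean in replicates A and B, and SPARCL1 at 9.93% and 3.35%. In whole-organoid sums, more cells using a gene and more RNA per cell cannot be told apart.

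AQP4, the water channel of astrocyte endfeet, was the last to appear. Its level was 0.0379 and 0.0111 CPM in the D11 replicates (6 and 2 UMIs in all), 2.42 and 0.937 CPM on D28, and 64.8 and 87.4 CPM on D45. The days did not overlap, which was so for each of the 9 genes. The log2 fold change was 5.88 ± 0.76 (SE) from D11 to D28 and 5.32 ± 0.57 from D28 to D45, with adjusted p = 0.00318 and 0.00731 (edgeR quasi-likelihood test, Benjamini-Hochberg over all genes tested, 2 libraries per day).

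GFAP, the intermediate filament of the astrocyte cytoskeleton, followed the same course. Its level was 0.562 and 0.672 CPM on D11, 8.52 and 4.00 CPM on D28, and 92.1 and 109 CPM on D45. It rose by log2 fold changes of 3.12 ± 0.44 and then 3.82 ± 0.44 (edgeR adjusted p = 0.00423 and 0.0081). SPARCL1, a secreted matrix protein that promotes synapse formation, measured 2.60 and 2.86 CPM on D11, 89.6 and 30.3 CPM on D28, and 781 and 1024 CPM on D45. On D28 replicate A was above replicate B for SPARCL1, GFAP, AQP4, AGT and SLC1A3, and below it for SLCO1C1, MT3, GJA1 and SLC1A2. From D11 to D45 the log2 fold change of SPARCL1 was 7.96 ± 0.70 (edgeR adjusted p = 0.000501).

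The 2 glutamate transporters parted. SLC1A3 (GLAST), the form known from radial glia, was at 11.8 and 7.68 CPM on D11, 83.7 and 78.8 CPM on D28, and 239 and 222 CPM on D45. It rose at both steps, by 2.81 ± 0.25 and 1.34 ± 0.24 on the log2 scale (edgeR adjusted p = 0.00103 and 0.0227). SLC1A2 (GLT-1), the main transporter of mature astrocytes, was at 17.0 and 14.2 CPM on D11, 39.8 and 51.8 CPM on D28, and 76.9 and 67.0 CPM on D45. It rose to D28 by 1.28 ± 0.16 (edgeR adjusted p = 0.00301), while its later difference of 0.51 ± 0.16 did not pass the threshold of 0.05 (edgeR adjusted p = 0.087).

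GJA1 (connexin 43), the gap junction protein that couples astrocytes, measured 27.0 and 27.7 CPM on D11, 12.4 and 21.3 CPM on D28, and 29.3 and 47.0 CPM on D45. The D28 libraries were the lowest, below every library of the other days. Neither the D28 difference of -0.98 ± 0.29 on the log2 scale (edgeR adjusted p = 0.0503) nor the later one of 1.06 ± 0.29 (edgeR adjusted p = 0.0635) passed. The D28 difference lay at the threshold and passed as lower in 6 of 13 alternatives, among them DESeq2 (-0.99, adjusted p = 0.0156) and the replicate block (-1.02, edgeR adjusted p = 0.0364). Between D11 and D45 the difference was 0.08 ± 0.29, and it turned to -0.35 without D45 replicate B, to -0.17 without the 5% of cells with most UMIs and to -0.24 with cells thinned to 1500 UMIs.

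SLCO1C1 (OATP1C1), a carrier of thyroid hormone, rose from 1.83 and 0.855 CPM on D11 through 18.1 and 44.1 CPM on D28 to 286 and 326 CPM on D45. MT3, the metallothionein of the brain, rose from 16.0 and 13.6 CPM through 134 and 198 CPM to 597 and 783 CPM. AGT, the precursor of angiotensin made by astrocytes, rose from 0.765 and 0.855 CPM through 5.76 and 3.38 CPM to 25.6 and 41.7 CPM. Each of these 3 genes passed at both steps. The log2 fold changes were 4.24 ± 0.48 and 3.20 ± 0.45 for SLCO1C1 and 3.21 ± 0.26 and 1.93 ± 0.24 for MT3. Those for AGT were 2.27 ± 0.41 and 2.71 ± 0.41 (edgeR). As in the other genes of the 9, the days did not overlap. With 2 libraries a day this separation carries little by itself, as SLC1A2 and GJA1 showed it without passing from D28 to D45. Its share over all genes was not counted.

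**Figure D1:**
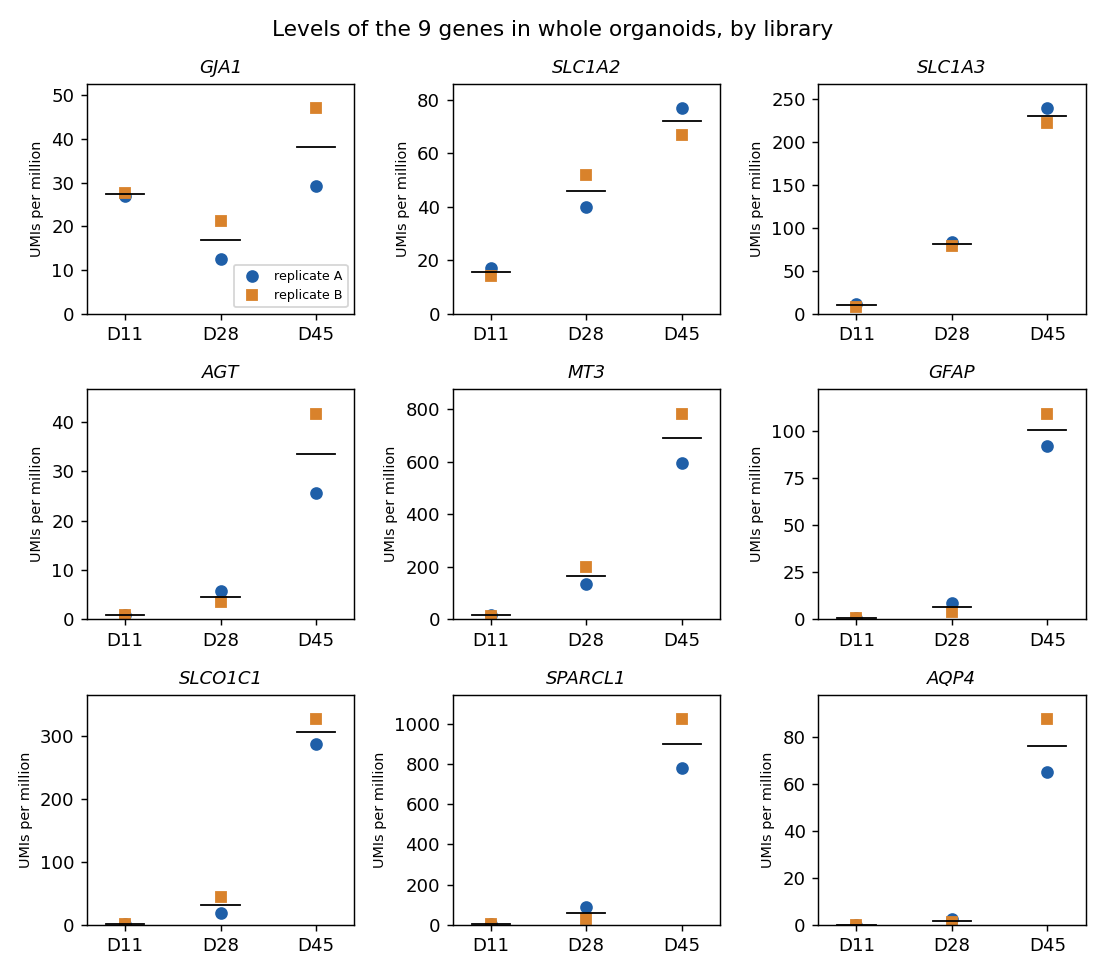
Level in CPM of each gene in each of the 6 whole-organoid libraries (circles replicate A, squares replicate B, bars the mean of 2 libraries). All genes but GJA1 climb from D11 to D45, and GJA1 is lowest on D28.

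Counted over the genes, 8 of 9 were higher on D28 than on D11, 7 of 9 on D45 than on D28 and 8 of 9 on D45 than on D11, and none was lower at the threshold, with GJA1 on D28 just short of it. Among all 22192 genes tested, 12.5%, 4.47% and 17.3% were called higher. The D45 against D28 calls rest on both D45 libraries, for all genes as for the 9. With either D45 library left out the calls of the 9 were lost, and with them nearly all calls over all genes. In the 13 alternatives the log2 fold change of D45 against D28 ran from 4.71 to 6.37 for AQP4 and from 0.22 to 0.58 for SLC1A2, the smallest.

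The order of appearance was read from the mean CPM on each day as a share of the highest day, which was D45 for every gene. CPM lacks the scaling of the tests. For GJA1 the scaled difference between D11 and D45 was only 0.08 ± 0.29 on the log2 scale, so its highest day and its share depend on the scaling. On D11 the share was 71.6% for GJA1, 21.7% for SLC1A2, 4.23% for SLC1A3, 2.41% for AGT, 2.14% for MT3, 0.613% for GFAP, 0.438% for SLCO1C1, 0.303% for SPARCL1 and 0.0322% for AQP4. Neighbours in this order such as AGT and MT3, or GFAP, SLCO1C1 and SPARCL1, lie close beside the distance between replicates and were not tested against each other. With 50% in place of 10% as the mark, GJA1 reached it on D11, SLC1A2 on D28 and the other 7 genes on D45.

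**Figure D2:**
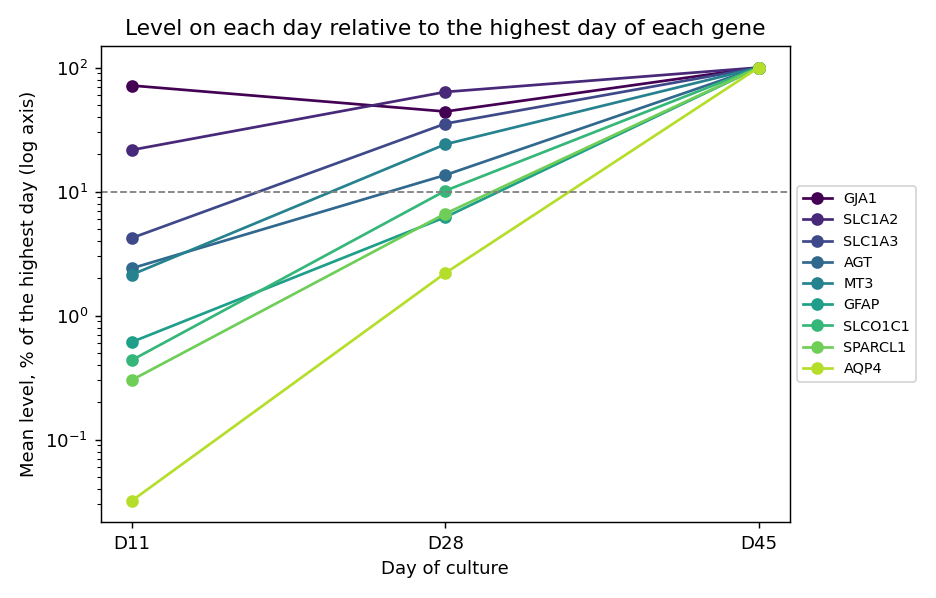
Mean level of each gene on each day as a percentage of its highest day (log axis, mean of 2 libraries, dashed line at 10%). The genes fan out over more than 3 decades on D11, from GJA1 at 71.6% to AQP4 at 0.0322%.

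Of a wider list of 36 astrocyte genes outside the 9, 34 were found by symbol, and 25 were higher and 2 lower on D45 than on D11, with a median log2 fold change of 2.37 against -0.01 over all genes. BCAN, a brain proteoglycan, changed by 8.76 ± 1.03, GPR37L1, a glial receptor, by 8.30 ± 0.40, NFIX, a gliogenic transcription factor, by 7.94 ± 0.54 and HEPACAM, an adhesion protein of astrocyte endfeet, by 7.07 ± 0.33 (edgeR). Of 11 genes of the reactive astrocyte list that were tested, 6 were higher and 0 lower, among them LCN2 at 5.85 ± 0.94 and EMP1 at 5.68 ± 0.65. Other lists moved with age as well. Of the 10 oligodendrocyte lineage genes tested 9 were higher, of the 7 fibroblast genes 4 were higher, and of the 5 mitotic genes all 5 were lower. Their part in the whole-organoid rise was not tested.

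The levels were next taken apart by cell. Cells with at least 1 UMI of AQP4 numbered 6 and 2 (D11), 127 and 63 (D28), and 1756 and 2285 (D45 libraries), which is 0.0408% and 0.00928%, 0.889% and 0.454%, and 8.74% and 12.4% of cells. Cells with HES5, a Notch target of neural progenitors, numbered 2655 and 2409 in the D11 libraries, 335 and 792 in those of D28, and 724 and 747 in those of D45. Cells with STMN2 numbered 3940 and 7196, 10693 and 9657, and 14474 and 12619. Among AQP4-positive cells 71.2% and 67.9% on D45 also held STMN2, close to the 72.0% and 68.5% of all D45 cells that did. On D28 71.7% and 68.3% of AQP4-positive cells held it, beside 74.8% and 69.6% of all cells. These shares are at unequal depth. The D45 medians were 9394 and 10901 UMIs in AQP4-positive cells and 2300.5 and 4341 in all cells. By level AQP4-positive cells held less STMN2, averaging 278 CPM on D28 and 379 CPM on D45 beside 1372 and 885 CPM in all cells. The gates overlap widely, and 1 STMN2 UMI does not mark a cell as a neuron on D28 or D45. Groups for the tests therefore held cells with only 1 of the 3 gate genes, and they had to number 20 in a library. This left 34 AQP4-only cells in D28 replicate A, 460 and 675 on D45, and no such sum for D28 replicate B, which had 19. The gate genes themselves were not tested. AQP4-positive cells of D28 were deep, with medians of 17111 and 17941 UMIs, and no doublet caller was run.

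Across D28 and D45, AQP4-only cells exceeded STMN2-only cells of the same library in 7 of the 8 other genes, against 15.9% of 14594 genes called higher in all. GFAP stood out, at 106 CPM in D28 replicate A and 380 and 331 CPM on D45 in AQP4-only cells, against 6.81, 38.2 and 41.0 CPM in the STMN2-only cells of those libraries. That is a log2 fold change of 3.56 ± 0.31 (edgeR adjusted p = 6.81e-05). SPARCL1 was 2.24 ± 0.37 higher, SLC1A3 2.19 ± 0.26, AGT 2.19 ± 0.39, GJA1 1.96 ± 0.33, SLCO1C1 1.71 ± 0.36 and MT3 1.45 ± 0.28. SLC1A2 was the exception at -0.62 ± 0.41 (edgeR adjusted p = 0.276). The STMN2-only group leaves out every cell with AQP4, which lowers any gene found together with AQP4. On D45 STMN2-only cells averaged 39.6 CPM of GFAP and 452 CPM of SPARCL1. All STMN2-positive cells averaged 92.3 and 800 CPM, and all AQP4-positive cells 334 and 2433 CPM. Within the fit the AGT and SLCO1C1 differences lie in the D45 libraries. In D28 replicate A AGT was at 5.31 CPM in both groups and SLCO1C1 at 14.2 and 13.7 CPM. The 19 AQP4-only cells of D28 replicate B, outside the fit, parted the 2 genes. SLCO1C1 was at 0 UMIs there against 29.8 CPM in STMN2-only cells, while AGT was higher than in STMN2-only cells. Over both D28 libraries AGT averaged 23.9 ± 26.3 (SD) CPM in AQP4-only cells and 4.24 ± 1.52 CPM in STMN2-only cells. When every cell with AQP4 was counted, whatever else it held, SLCO1C1 no longer passed (1.03 ± 0.49, edgeR adjusted p = 0.12), a grouping that was chosen after seeing the data. All 11 neuron genes were lower, as they were in HES5-only cells. Both groups had been chosen without a UMI of the neuronal marker STMN2, so the gate favoured this. Higher in AQP4-only cells too were 7 of 9 progenitor, 6 of 7 ciliated cell and 6 of 9 reactive astrocyte genes. The part of all these lists in the differences was not tested.

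SLC1A2 was lower in HES5-only than in STMN2-only cells on D11, and over D28 and D45 together the difference of 0.18 ± 0.35 did not pass (edgeR adjusted p = 0.762). Its level in STMN2-only cells was 31.1 and 23.0 CPM on D11, 46.8 and 64.6 CPM on D28, and 72.4 and 73.4 CPM on D45. AQP4-positive cells of D28, those with other gate genes included, held only 5.48 and 9.76 CPM, and those of D45 held 98.2 and 60.5 CPM. HES5-only cells went from 10.8 and 8.34 CPM on D11 through 36.5 and 51.8 CPM to 122 and 101 CPM on D45, above the STMN2-only cells of the same libraries. On D45 STMN2-only cells held 62.2% and 56.4% of all UMIs, 58.6% and 61.8% of the SLC1A2 UMIs and 25.8% and 21.2% of the GFAP UMIs.

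Between AQP4-only and HES5-only cells only 2 of the 8 genes passed as higher, GFAP by 2.48 ± 0.34 and SPARCL1 by 1.58 ± 0.37 (edgeR adjusted p = 0.00544 and 0.0377), against 3.15% of all genes. On D45 GFAP was at 380 and 331 CPM in AQP4-only cells and at 63.6 and 89.5 CPM in HES5-only cells. SPARCL1 was at 2691 and 2975 CPM in the first and 1033 and 1052 CPM in the second. Both pairs of libraries were separate. The HES5-only group leaves out every cell with AQP4, which lowers any gene found together with AQP4. All HES5-positive cells of D45, 21.9% of them with AQP4, averaged 188 CPM of GFAP and 1459 CPM of SPARCL1. All AQP4-positive cells averaged 334 and 2433 CPM. AGT differed by 1.55 ± 0.41 (edgeR adjusted p = 0.0563). It passed when every cell with AQP4 was counted as AQP4-positive (1.26 ± 0.27, edgeR adjusted p = 0.0162), which also leaves such cells out of the HES5 group. SLC1A3 (0.18 ± 0.26), GJA1 (0.66 ± 0.35), MT3 (-0.47 ± 0.28), SLCO1C1 (-0.79 ± 0.39) and SLC1A2 (-0.79 ± 0.41) did not pass, and these errors do not show that the levels were alike. Without D28 replicate A 3 of 8 passed, and without D28 replicate B 1 of 8. Without D45 replicate A, and likewise without D45 replicate B, 0 of 8 passed in edgeR, with 4 of 8 at an unadjusted p under 0.05 each time. Over all genes the fits with 1 library left out called 37 to 1323.

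Other marker lists moved in that same comparison. Of 31 other astrocyte genes tested 3 were higher in AQP4-only cells, APOE by 1.88 ± 0.38, NTRK2 by 0.95 ± 0.17 and ID3 by 0.94 ± 0.24. Among 9 progenitor genes DLL1, a Notch ligand, differed by -1.52 ± 0.33 and LIX1, a gene of neural progenitors, by -1.19 ± 0.24. Also higher were 4 of 7 fibroblast genes, 4 of 7 ciliated cell genes and 4 of 9 reactive astrocyte genes. The fibroblast markers summed to 2192 CPM in the AQP4-only cells of D28 replicate A and to 1363 and 1934 CPM on D45, against 589, 309 and 1355 CPM in HES5-only cells. The ciliated markers summed to 70.8, 451 and 214 CPM against 87.5, 138 and 133 CPM. Their part in the GFAP and SPARCL1 differences was not tested.

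HES5-only cells exceeded STMN2-only cells on D28 and D45 in 5 of 8 genes (10.8% of all genes were higher), namely SLCO1C1 (2.50 ± 0.34), SLC1A3 (2.02 ± 0.24), MT3 (1.92 ± 0.25), GJA1 (1.30 ± 0.31) and GFAP (1.08 ± 0.31). Without D45 replicate B 3 of 8 passed. GFAP passed in 8 of 13 alternatives, and D28 replicate A went the other way, with 0 UMIs in HES5-only cells and 6.81 CPM in STMN2-only cells. GJA1 did not pass when AQP4-positive cells were set apart first (0.85 ± 0.29, edgeR adjusted p = 0.074). Of the other lists 8 of 9 progenitor and 5 of 5 mitotic genes were higher as well, and their part was not tested. SLCO1C1 was clearest on D28, with 142 and 230 CPM in HES5-only cells, 13.7 and 29.8 CPM in STMN2-only cells, and 17.4 and 4.44 CPM in AQP4-positive cells. MT3 followed it with 264 and 753, 129 and 147, and 160 and 263 CPM. By D45 SLCO1C1 had reached 621 and 602 CPM in AQP4-only cells beside 789 and 650 CPM in HES5-only cells.

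**Figure D3:**
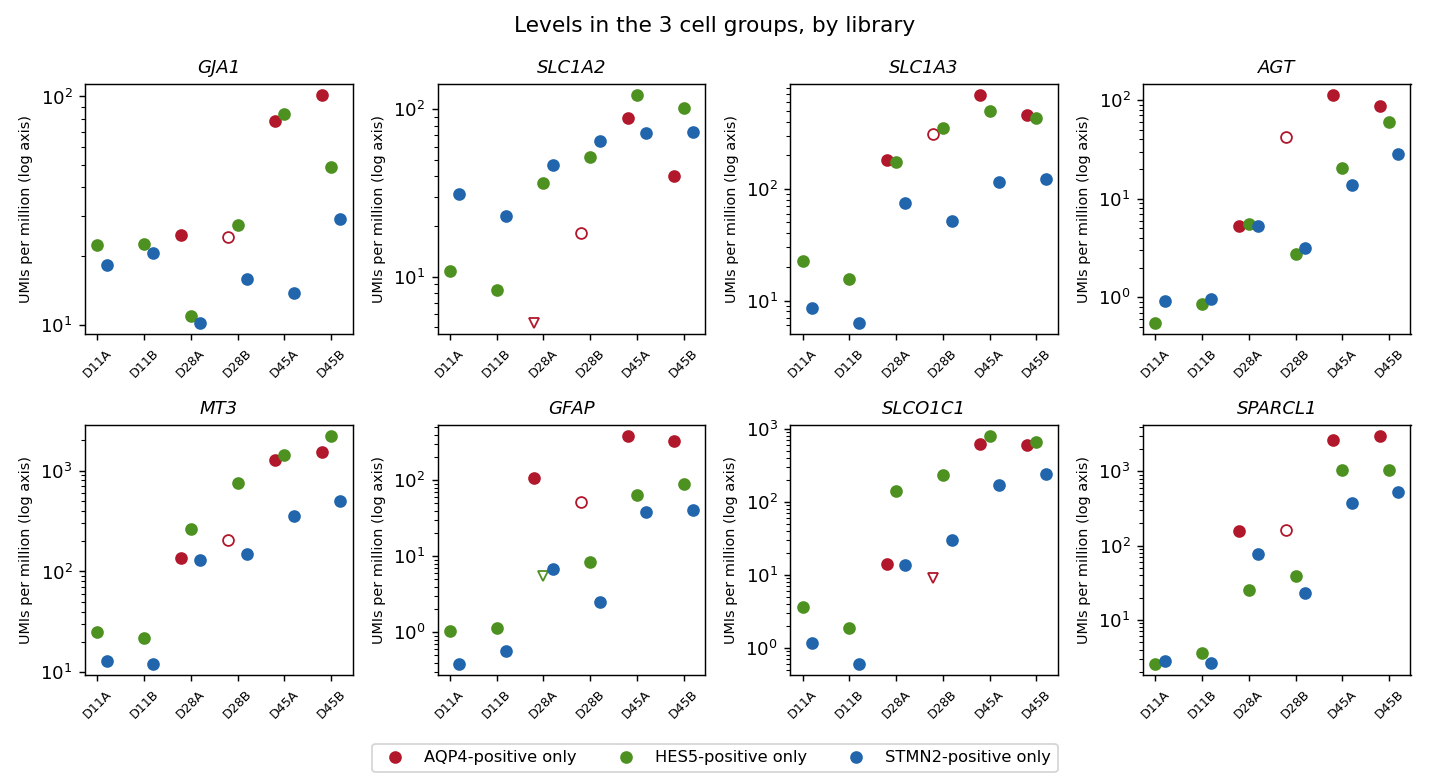
Level in CPM (log axis) in AQP4-only, HES5-only and STMN2-only cells of each library, for the 8 genes other than AQP4. Open circles rest on fewer than 20 cells, open triangles mark the level of 3 UMIs where no UMI was seen, and the 2 AQP4-only cells of D11 are not drawn. GFAP and SPARCL1 are highest in AQP4-only cells on D45, SLCO1C1 and MT3 in HES5-only cells on D28.

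HES5-only cells of D11 exceeded STMN2-only cells in 5 of 8 genes (27% of 16956 genes were called higher) and fell below them in 1 (26.6% called lower), in a fit of 4 sums with 1 residual degree of freedom. Also higher were 7 of 9 progenitor and 5 of 5 mitotic genes, whose part was not tested. SLC1A3 was at 22.6 and 15.5 CPM against 8.49 and 6.35 CPM, a log2 fold change of 1.36 ± 0.09. SLCO1C1 was 1.64 ± 0.21 higher, GFAP 1.19 ± 0.31, MT3 0.91 ± 0.08 and GJA1 0.22 ± 0.07. GJA1 was higher still in cells with none of the 3 gate genes, at 32.0 and 32.9 CPM against 22.4 and 22.6 CPM in HES5-only cells. SLC1A2 was the one that was lower, at 10.8 and 8.34 CPM against 31.1 and 23.0 CPM, a log2 fold change of -1.49 ± 0.08. DESeq2 called 4 of the 8 genes, and GJA1 passed in 6 of 9 alternatives. With cells thinned to 1500 UMIs 5 genes could be tested and 3 passed. At that depth HES5-only cells of D11 held a mean of 0.122 and 0.0918 of the 8 genes and STMN2-only cells 0.106 and 0.0974, so the libraries did not separate the groups.

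**Figure D4:**
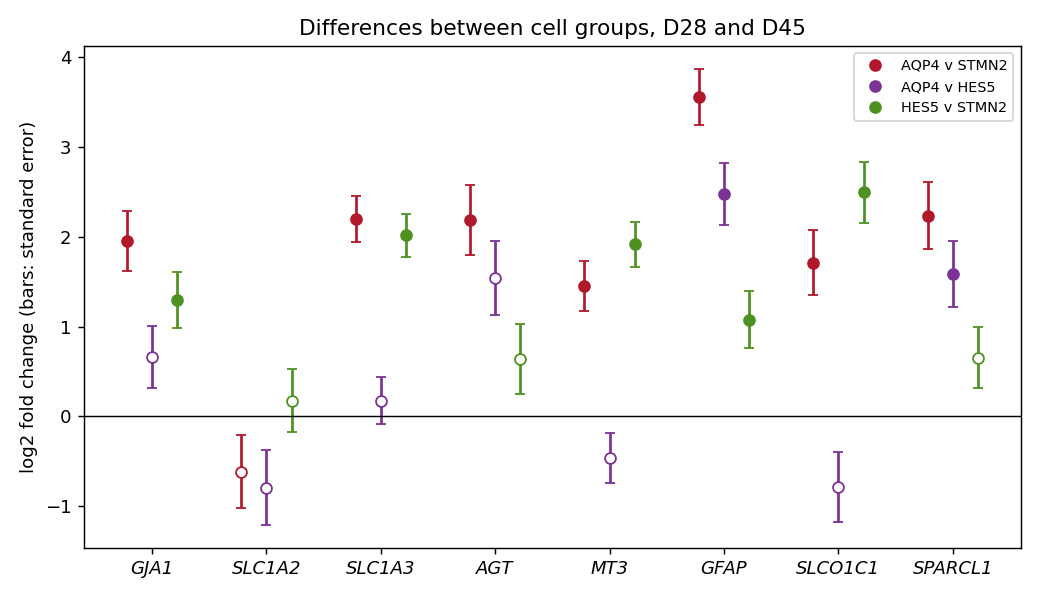
Log2 fold changes with their standard errors between the 3 cell groups on D28 and D45, filled where the edgeR adjusted p was 0.05 or less. GFAP and SPARCL1 are filled in AQP4 against HES5, SLC1A2 in none of the 3 comparisons.

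Levels within cells of 1 group were then compared between days. HES5-only cells numbered 1990 and 1625 on D11 and 48 and 297 on D28. HES5 is a Notch target and DAPT was in the later medium only, so this gate may pick different cells on D11 and later, which was not tested. In HES5-only cells 6 of 8 genes rose from D11 to D28 (4.94% of 12593 genes were higher), led by SLCO1C1 at 5.98 ± 0.39, MT3 at 4.31 ± 0.45, SLC1A3 at 3.68 ± 0.33 and SPARCL1 at 3.35 ± 0.30. GFAP passed at 2.48 ± 0.55 but rests on D28 replicate B, as replicate A held 0 GFAP UMIs in 48 such cells. From D28 to D45 7 of 8 rose (3.38% higher), led by SPARCL1 at 4.87 ± 0.31, AGT at 3.65 ± 0.70 and GFAP at 3.48 ± 0.44, and SLC1A3 at 0.75 ± 0.30 did not (edgeR adjusted p = 0.171). AGT starts from 3 and 9 UMIs in the D28 replicates and GFAP from 0 and 28. With the replicate letter as a replicate block 4 of 8 passed, without D45 replicate A 3 of 8 and without D45 replicate B 2 of 8. Without D11 replicate A or replicate B it was 4 of 8. Of 9 oligodendrocyte lineage genes tested 3 rose in HES5-only cells to D28 and 6 from D28 to D45. To D28 3 of 5 mitotic genes also fell, and 2 of 7 fibroblast and 2 of 7 reactive astrocyte genes rose. The part of these was not tested.

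In AQP4-only cells the 6 genes with more than 3 UMIs on D28 passed as higher on D45 (8.25% of 13903 genes were called higher). SLC1A2 and AGT passed too, but against 0 and 3 UMIs, so their calls carry little, and the fit had 3 sums and 1 residual degree of freedom, as D28 was represented by replicate A alone, whose 34 cells are assumed to vary like the others. The median of all genes also shifted by 0.17. SLCO1C1 rose by 5.20 ± 0.34 from only 8 UMIs in D28 replicate A, SPARCL1 by 3.94 ± 0.38, MT3 by 3.14 ± 0.34, GJA1 by 1.64 ± 0.36, GFAP by 1.51 ± 0.23 and SLC1A3 by 1.44 ± 0.32 (edgeR). No fold is given for SLC1A2, at 0 UMIs in D28 replicate A and at 89.4 and 40.2 CPM on D45, or for AGT, at 3 UMIs (5.31 CPM) in D28 replicate A and at 112 and 87.6 CPM on D45. In the 19 AQP4-only cells of D28 replicate B, too few to enter the fit, AGT was at 42.4 CPM, SLC1A2 at 18.2 CPM and SLCO1C1 at 0 UMIs. Markers of other cells moved as well, with 7 of 9 oligodendrocyte lineage and 4 of 11 neuron and 2 of 7 ciliated cell genes higher, 4 of 5 mitotic and 3 of 7 fibroblast genes lower, and 2 of 9 reactive astrocyte genes higher and 3 lower on D45. COL3A1 was seen in 70.6% and 31.6% of AQP4-only cells on D28 and in 8.70% and 25.5% on D45. The oligodendrocyte lineage markers summed to 83.2 CPM in D28 replicate A and to 768 and 627 CPM on D45, and their part was not tested. With all deposited barcodes 0 of 8 passed in edgeR, with all 8 at an unadjusted p under 0.05, and DESeq2 was run only on the kept cells. With AQP4-positive cells of both D28 libraries, whatever else they held, GFAP rose by 2.73 ± 0.41, AGT by 2.16 ± 0.24 and SLC1A2 by 3.28 ± 0.37 (edgeR adjusted p = 0.0188, 0.0114 and 0.0112).

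Even in STMN2-only cells 5 of 8 genes rose from D28 to D45 (3.36% of 21007 genes were higher). SLCO1C1 rose by 3.18 ± 0.39, SPARCL1 by 2.99 ± 0.59, GFAP by 2.92 ± 0.50, AGT by 2.20 ± 0.46 and MT3 by 1.53 ± 0.24. With the replicate block 1 of 8 passed, as it did without D11 replicate A or replicate B. Without D45 replicate A and without D45 replicate B 0 of 8 passed in edgeR, with 6 and 5 of 8 at an unadjusted p under 0.05. In the same cells 7 of 10 oligodendrocyte lineage genes rose, and their sum went from 84.2 and 118 CPM to 1126 and 873 CPM. The part of such RNA in the rise was not tested. Cells gated on 1 UMI of other markers held SPARCL1 too. On D45 its level was 805 and 964 CPM in cells with COL3A1, a fibroblast collagen, and 279 and 465 CPM in cells with SOX10, an oligodendrocyte lineage factor. It was 1857 and 2327 CPM in cells with FOXJ1, the factor of motile cilia, and averaged 902 CPM in all D45 cells. These gates do not separate kinds of cell, as 68.1% of COL3A1-positive cells held STMN2 and 35.7% of FOXJ1-positive cells held AQP4. How much of this is free RNA in the droplets or more than 1 cell per barcode was not tested.

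Because deep cells show a gene more often, shares were compared after thinning each cell to 1500 UMIs, which kept 11511 and 11970 cells on D45. The gates were drawn again on the thinned counts, which left 324 and 466 AQP4-only, 121 and 119 HES5-only and 5501 and 5121 STMN2-only cells. SPARCL1 was seen in 81.5% and 81.8% of AQP4-only cells, in 48.8% and 59.7% of HES5-only cells, in 18.4% and 24.6% of STMN2-only cells and in 12.9% and 16.6% of SOX10-positive cells. Unthinned and with the gates drawn on all UMIs, the same shares were 73.7% and 80.3%, 70.2% and 71.9%, 38.8% and 50.8%, and 41.8% and 52.5%. GFAP was seen in 37.3% and 43.8%, 10.7% and 6.72%, 4.27% and 5.14%, and 1.89% and 5.03% of these groups. SLC1A2 did not follow, with 11.4% and 5.79%, 14.9% and 15.1%, 10.8% and 12.05%, and 5.95% and 5.17%. Before thinning, the median cell had 5134 and 8806 UMIs in the AQP4-only, 11210 and 9668.5 in the HES5-only, 2900 and 4814 in the STMN2-only and 11203.5 and 10959 in the SOX10-positive group. Unthinned, 42.3% and 54.5% of all D45 cells held a SPARCL1 UMI and 13.3% and 18.7% a GFAP UMI, and thinned 26.7% and 34.8%, and 7.25% and 9.03%.

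Counted cell by cell at 1500 UMIs, AQP4-only cells of D45 held a mean of 2.98 and 2.93 of the 8 other genes, HES5-only cells 2.33 and 2.39 and STMN2-only cells 0.80 and 1.01. At least 4 of the 8 were found together in 38.3% and 38.0% of AQP4-only cells, 26.4% and 21.8% of HES5-only cells and 2.94% and 3.71% of STMN2-only cells. On D11 no cell of any group held 4. Of D45 cells with an AQP4 UMI after thinning, 72.1% and 74.0% also had SPARCL1, 59.3% and 57.1% MT3, 45.7% and 43.6% SLC1A3, and 31.3% and 38.3% GFAP. In the other direction 18.7% and 24.8% of GFAP-positive cells and 5.00% and 4.41% of SLC1A2-positive cells had AQP4, beside 4.33% and 5.84% of all cells.

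Over 21 sums (4 exclusive groups, with 20 cells or more, in 6 libraries) the 5 named genes whose log2(CPM + 1) profile was most like the mean of the 8 genes other than AQP4 were GPR37L1 (r = 0.981), GSAP (0.965), SNTB1 (0.963), PIPOX (0.961) and BCAN (0.960). The points share libraries and depth, so r is a description. Among the genes themselves SPARCL1 (0.967) was closest to that mean and SLC1A2 (0.609) the furthest of the 8. Each of the 8 is part of the mean, which raises its r beside that of an outside gene. GPR37L1 was at 0.0379 and 0.0389 CPM on D11, 1.61 and 2.22 CPM on D28 and 13.3 and 19.4 CPM on D45, and at 30.0 and 38.6 CPM in the AQP4-only cells of D45.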

How the data were processed

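Single-cell RNA-seq was made from pMLOs on D11, D28 and D45, 2 libraries per day. The authors aligned reads to Sscrofa11.1 with Cell Ranger 8.0.1 and deposited UMI counts per gene and barcode, unnormalized. Seurat 4.3.0 is named in the submitters' processing notes. Of 30477 genes, 16266 are named in the files and 844 through the reference. Mitochondrial content was taken from 37 genes. Gates needed 1 UMI.

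Counts were summed over cells per library and group (at least 20 cells) and tested with edgeR 4.0.16 (TMM, quasi-likelihood, Benjamini-Hochberg, threshold 0.05) in 11 comparisons. Fits of cell groups against each other held the library as a term, and those of days held day alone. The test was checked on simulated data. Alternatives were DESeq2 1.42.0, its size factors, no low-count filter, all barcodes, no top 5% of cells by UMIs, thinning, 2 UMIs per gate, no library term, each library left out, a replicate block and AQP4-first gates.

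Thinned shares used 1500 UMIs per cell, leaving out shallower cells, with gates drawn on the thinned counts. In AQP4-only cells between days no fold is given against 3 UMIs or fewer. Other folds in gated cells include such sums, as for AGT and GFAP in HES5-only cells of D28 replicate A. Exact (Clopper-Pearson) intervals of the shares cover counting error only. The 9 genes, the 12 marker lists (134 genes, 8 not found) and the tests were chosen with earlier results of these data known. Named genes are the 9 members, the gate genes, up to 4 list genes with the largest change from D11 to D45 or between AQP4-only and HES5-only cells, and the 5 most alike. The promoter motifs were chosen after the values were seen. 0 columns of other samples were used. The authors' clusters and the bulk RNA-seq were not analysed here. Correlations of same-letter deviations between days were -0.32, 0.05 and -0.20, which cannot show whether the replicate letters pair the libraries. Software was R 4.3.3 and python 3.11.15.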

Additional observations from a re-analysis of the deposited data

Results flagged for a closer look

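Between days, the HES5-only against STMN2-only contrast turned direction in every library for 2 genes, and the difference between days was not tested. For SLC1A2 the mean log2 ratio went from -1.49 (D11) through -0.34 (D28) to 0.61 (D45), a shift of 2.10 from D11 and of 0.95 from D28. For AGT it was -0.45 on D11 and 0.81 on D45, a shift of 1.27. AGT passed in neither comparison (edgeR adjusted p = 0.281 on D11 and 0.264 over D28 and D45) and rests on few UMIs on D11, at 0.553 and 0.844 CPM in HES5-only cells against 0.91 and 0.964 CPM in STMN2-only cells. With 2 libraries per day no library could be tested as standing apart.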

How the results depend on the processing

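Of 1138 repeats of a single gene's result under another setting, 997 kept direction and side of the threshold, 102 lost the call, 29 gained it and 10 turned direction. The cause was not tested for any of them. The turned values are in log2. GJA1 from D11 to D45 was -0.17 without the 5% of cells with most UMIs and -0.24 thinned, and -0.35 to 0.41 with 1 library left out. SLC1A3 in AQP4 against HES5 cells ran from -0.079 to 0.32 with 1 library left out. SLC1A2 in HES5 against STMN2 cells was -0.059 thinned and ran from -0.019 to 0.36. In HES5 cells from D11 to D28 GJA1 ran from -1.03 to 0.041, and GFAP from -6.45, where D28 held no GFAP UMI, to 2.73. In STMN2 cells from D28 to D45 SLC1A2 was -0.14 thinned and GJA1 ran from -0.065 to 1.06. Of these results GFAP alone had passed the threshold.

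Leaving out 1 library at a time, the genes of the 9 (8 in gated cells) past the threshold ranged from 7 to 9 for D28 against D11, 0 to 9 for D45 against D28 and 8 to 8 for D45 against D11, from 5 to 7 for AQP4 against STMN2 cells, 0 to 3 for AQP4 against HES5 cells and 3 to 6 for HES5 against STMN2 cells, and from 5 to 6, 2 to 7 and 0 to 6 within HES5 cells to D28, HES5 cells to D45 and STMN2 cells to D45. Over all genes the same ranges were 1112 to 10545, 0 to 10003, 2804 to 12286, 1456 to 5303, 37 to 1323, 1424 to 3644, 174 to 2517, 92 to 2735 and 0 to 8708.

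Other settings moved counts over all genes as follows. D45 against D28 gave 2086 genes, 4353 in DESeq2 and 1304 thinned. AQP4 against STMN2 cells gave 4647, and 2756 with no library term. AQP4 against HES5 cells gave 763, then 1183 in DESeq2, 425 thinned, 1292 with 2 gate UMIs, 2041 with AQP4 first and 140 with no library term, where 1 of the 8 genes passed. HES5 against STMN2 cells gave 3337, and 1839 with no library term. On D11 it gave 9080, then 5093 in DESeq2, 4442 thinned (3 of the 5 genes tested) and 4635 with no library term. AQP4 cells from D28 to D45 gave 2251, then 926 in DESeq2, 3825 unfiltered, 1369 with AQP4 first and 0 with all barcodes (0 of 8 genes; 2971 and 8 at an unadjusted p under 0.05). HES5 cells from D11 to D28 gave 1075, then 2395 unfiltered, 171 thinned and 2312 with AQP4 first. HES5 cells from D28 to D45 gave 678, then 1999 unfiltered, 93 thinned (4 of the 7 genes tested) and 372 with AQP4 first. STMN2 cells from D28 to D45 gave 1322, then 3434 in DESeq2, 2047 unfiltered, 603 thinned and 750 with 2 gate UMIs. With 50% as the mark of appearance, 1, 1 and 7 genes were first there on D11, D28 and D45, against 2, 4 and 3 at 10%.

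Whether the letters A and B link libraries of different days is not stated by the study. With the replicate block D28 against D11 gave 3314 genes (5131 without it) and all 9, GJA1 as lower, D45 against D28 628 and 7, and D45 against D11 5882 and 8. HES5 cells gave 582 and 5 to D28 and 197 and 4 to D45, and STMN2 cells 360 and 1. Not run, because too few sums were left, were the D11 gate comparison without either library and, for AQP4 cells between days, thinning, the block, 2 gate UMIs and leaving out D28 replicate A or either D45 library. In AQP4-only cells of D28, 3 UMIs are 5.31 and 9.09 CPM.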
